A study of Mus musculus with 8 samples.

Results

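The 239 genes described here are the olfactory receptor genes numbered Olfr987 to Olfr1318 in a table of polysome RNA from the main olfactory epithelium of the mouse. They were chosen by symbol alone, leaving out symbols that end in -ps, and make up 239 of the 1090 numbered Olfr rows (21.9%) and of the 21765 rows in all. The study asked how the RNA-binding protein gene Mex3a bears on transcripts that carry ribosomes. Wild-type (WT) mice carried Mex3a flox/flox or Mex3a flox/+ and no Cre. Conditional knockouts (cKO) carried Mex3a flox/flox together with Cre. Cycloheximide, which holds ribosomes on mRNA, was present at 100 µg/mL from the dissection of both genotypes on, and lysates were spun through gradients. Early polysomes (fractions 27 to 34) are the lighter ones and late polysomes (fractions 35 to 42) the heavier ones. The 4 groups, early and late polysomes of either genotype, held 2 libraries each, from 2 lysates a genotype. The labels give no age and no number of animals per lysate, so p-values measure the spread between these libraries.

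Olfactory receptors are G protein-coupled receptors that bind odorants on the cilia of olfactory sensory neurons. A mature neuron transcribes a single receptor allele out of the whole repertoire, so the transcript of a given receptor in whole tissue comes from a small share of the neurons. The numbered receptors on chromosome 2 are class II (tetrapod-type) receptors that lie in dense arrays, with near-identical copies side by side. In bulk tissue, fewer neurons that chose a receptor and less RNA of it per neuron cannot be told apart.

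The reference table placed all 239 genes on chromosome 2 (GRCm38, the build mm10 of the submitters' processing notes), and listed 238 as protein coding. They fell into 2 groups of neighbours separated by 20.9 Mb. The first group ran from Olfr987 to Olfr1272 (85330967 to 90282573) and held 202 genes in 4.95 Mb. The second ran from Olfr1275 to Olfr1318 (111230853 to 112157007) and held 37 genes in 0.926 Mb. Of 236 genes with an annotated coding sequence, 233 had it in 1 exon, and its length was 909 to 1038 bases with a median of 936.

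The coding sequences share a conserved stretch at the end of the third transmembrane helix, the MAYDRY motif, whose last residues take part in G protein coupling. The Asp-Arg-Tyr part of it was found in 208 of 236 coding sequences and the full motif in 137. These 208 genes used 75 different sequences for the 18 bases that end with it, and the most frequent was shared by 30 genes. The stretch is shown for genes on which the results below turn, to let the receptors be compared with each other. Each line gives 48 bases of the coding sequence on the gene's own strand, 5′ to 3′, from the GENCODE transcripts on GRCm38, and the capitals mark the 18 bases at the place of the motif, which end in the Asp-Arg-Tyr codons. The residue before these differs from the full motif in Olfr1196, Olfr1206 and Olfr1140.
Olfr1196: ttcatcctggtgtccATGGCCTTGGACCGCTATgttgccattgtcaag
Olfr1301: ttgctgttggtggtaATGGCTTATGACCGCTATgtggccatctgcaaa
Olfr1271: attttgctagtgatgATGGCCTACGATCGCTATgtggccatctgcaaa
Olfr1281: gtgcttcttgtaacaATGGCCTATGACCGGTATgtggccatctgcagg
Olfr1228: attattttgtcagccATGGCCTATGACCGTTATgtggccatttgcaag
Olfr1206: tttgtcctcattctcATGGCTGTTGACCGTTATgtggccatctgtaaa
Olfr1140: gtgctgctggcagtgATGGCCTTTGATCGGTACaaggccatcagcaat
Olfr1104: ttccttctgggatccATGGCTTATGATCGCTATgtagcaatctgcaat
Olfr1258: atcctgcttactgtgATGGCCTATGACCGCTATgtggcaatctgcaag
Olfr1215: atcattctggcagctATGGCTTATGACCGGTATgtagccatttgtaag

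Among the 29 coding sequences available for the 30 highest genes, the 406 pairs had a median identity of 56.5%, with a range of 51% to 97%. The most alike pair was Olfr1196 and Olfr1197, neighbours that differ at 28 of 942 aligned bases. The 60 bases that hold the most differences between them start at base 562 of both coding sequences and are shown here because Olfr1196 is among the genes described below and its values depend on telling the pair apart. Capitals mark the 7 bases that differ.
Olfr1196: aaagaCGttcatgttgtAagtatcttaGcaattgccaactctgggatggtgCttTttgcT
Olfr1197: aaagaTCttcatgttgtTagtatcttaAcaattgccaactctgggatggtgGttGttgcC
Olfr1261 and Olfr1263 were 95.4% identical, Olfr1261 and Olfr1262 90.8%. Over whole transcripts, 53 of 237 genes shared no 50-base stretch with a transcript of another gene, and 105 shared over 5% of their stretches. Olfr1196 shared 11.8% and Olfr1197 18% (most with each other), Olfr1263 10.6%, Olfr1281 11.1% and Olfr987 37.4% (most with Olfr988). For Olfr1281 this was 541 of 4856 stretches of a transcript of 4905 bases. Its TPM rest on a much shorter gene model, about as long as the coding sequence. The shared part of that model was not computed and can be larger than 11.1%. Of 28 receptors named by the rules of the processing section, 13 shared over 5%. Among them were also Olfr1193 (25.9%), Olfr1031 (9.38%), Olfr1271 (8.88%), Olfr1154 (8.47%) and Olfr1206 (7.5%). How the authors assigned reads that fit several genes is not given in the sources used here. The values of all genes with shared stretches are therefore less certain. Exons of 6 genes overlapped another gene on the same strand and those of 2 genes a gene on the other strand. Of the 237 genes checked, none described with values below was among these. Olfr1213 and Olfr1182, which are named below, had no such transcript and were checked neither for shared stretches nor for overlap.

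Depth and the check of the targeted gene apply to every result. Reads inferred from the steps of the TPM values, which are read shares per length of gene model, came to 11699629 to 12771079 per WT library. They came to 7776792 to 11469998 per cKO library, lowest in cKO late replicate 2. Every cKO library was thus shallower than every WT library. Read counts given below for each genotype are not adjusted for depth. Mex3a itself was at 93.2 to 115.6 TPM in the 4 WT libraries and at 11.1 to 19.8 TPM in the 4 cKO libraries (log2 change on lysate means -2.68, SE 0.14, limma with Benjamini-Hochberg adjusted p = 0.0227). The library titled WT early replicate 2 carries the genotype tag of the cKO mice, against its title and its library name. It had 115.6 TPM of Mex3a and was kept as WT. Some results that rest on it are also given without it, and the others are given only with it as WT. Defining markers of mature olfactory neurons (10 of 10 detected, none at 0) summed to 9112 to 11099 TPM (WT early), 9278 to 9824 (cKO early), 8535 to 9200 (WT late) and 7517 to 8140 TPM (cKO late). Late against early, 8 of these 10 markers rose and 2, Omp and Stoml3, fell (limma adjusted p under 0.05, median log2 change 0.62). Of all genes tested, 34.3% rose and 34.6% fell. Omp and Stoml3 were the 2 highest of the 10, so the sums do not show the direction of most markers.

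All 239 receptors had a value above 0 in at least 1 library, and 191 had one in all 8. Their levels were low: the median of the mean TPM over the 8 libraries was 1.24 (25th to 75th percentile 0.644 to 2.24), against 2.02 for the other 851 numbered receptors and 10.6 for all rows. The highest reached 8.81 TPM, while the highest of the other receptors reached 30.8. Only 2 of the chromosome 2 genes were among the 50 highest receptors and 7 among the 100 highest. A median of 122 inferred reads over the 8 libraries lay behind each gene. For testing, a mean TPM of at least 1 was required, which 146 of the 239 genes met, with a median of 198 reads and a minimum of 30.

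Olfr1213 (MOR233-7) was the highest, at 12.5 and 12.6 TPM (WT early, replicates 1 and 2), 9.05 and 11.9 (WT late), 4.94 and 9.26 (cKO early) and 5.33 and 4.88 TPM (cKO late). Olfr1196 (MOR225-5, 88700383 to 88701327, minus strand) followed with 9.66 and 10.3 TPM (WT early), 6.87 and 6.49 (WT late), 8.62 and 8.43 (cKO early) and 3.90 and 3.13 TPM (cKO late). Olfr1301 (MOR248-5, 111754251 to 111755189, plus strand) led the second group, with a mean of 6.08 TPM. Olfr1271 (5.96), Olfr1176 (5.34), Olfr1263 (5.12), Olfr1222 (5.05), Olfr1240 (4.84), Olfr1018 (4.73), Olfr1193 (4.64), Olfr1140 (4.60) and Olfr1259 (4.40) completed the 12 highest by mean TPM. No single gene dominated: the 12 highest held 16.7% of the summed mean TPM of the 239 genes and the 24 highest 28.5%. The order of these genes was not tested, and ranges over the 8 libraries overlapped for some: Olfr1213 ranged from 4.88 to 12.6 TPM and Olfr1271 from 4.77 to 7.40 TPM. In the WT libraries alone, Olfr1213 (9.05 to 12.6 TPM) lay above every library of Olfr1271.

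**Figure D1:**
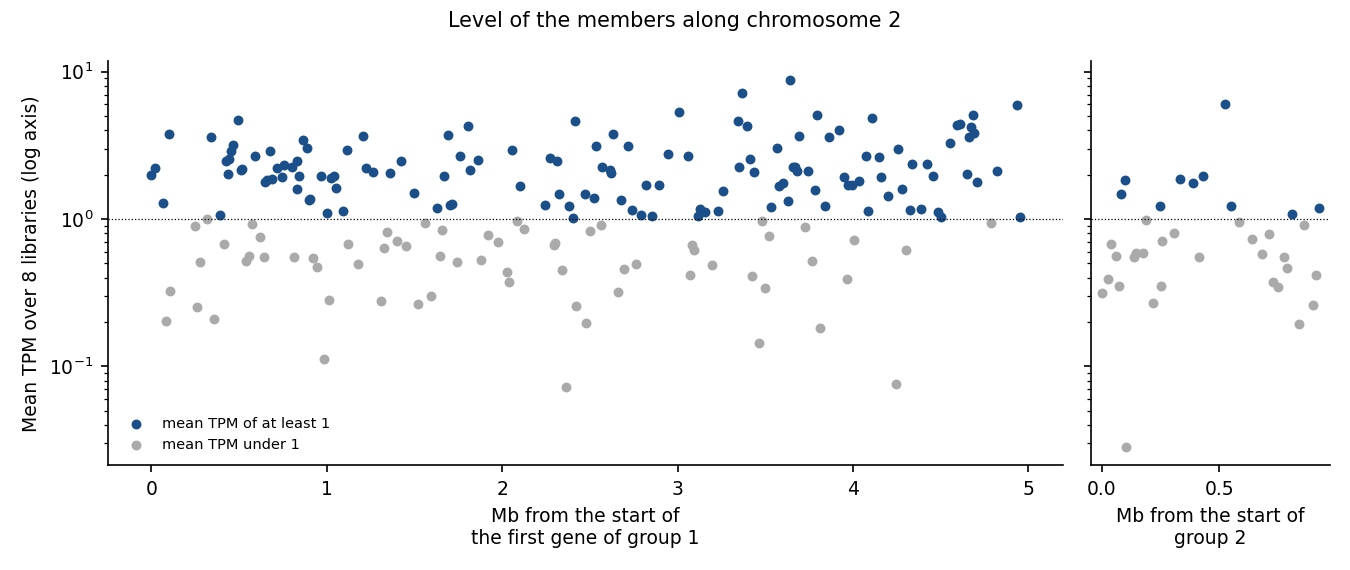
Mean TPM over the 8 libraries (log axis) of each of the 239 chromosome 2 receptor genes against its distance in Mb from the start of the first gene of its group of neighbours; blue points reach a mean TPM of 1 and grey points do not. Genes of high and low level lie side by side, and in the second group 10 of 37 genes reach the limit.

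High and low genes were interspersed in the arrays, as the plot of level by position shows. The first group had a median of 1.56 TPM and 136 of 202 genes at a mean of at least 1, the second a median of 0.592 TPM and 10 of 37. In windows of 0.5 Mb the median level ran from 0.998 TPM (Olfr1120 to Olfr1145) to 3.46 TPM (Olfr1256 to Olfr1272, the last window of the first group). MOR names from the reference table put 226 genes into 45 families, the largest being MOR245 with 21 genes. All MOR245 genes lay in the second group, and they were low (median 0.553 TPM, highest Olfr1288 at 1.22). The 17 MOR233 genes, all from Olfr1211 to Olfr1232, had a median of 2.11 TPM, and the 7 MOR213 genes, from Olfr1006 to Olfr1016, one of 2.57 TPM.

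The length of the gene model behind each TPM differed more than the coding sequence did. Lengths recovered from the TPM steps were 918 to 8087 bases, with a median of 2629. For 34 genes the model was about as long as the coding sequence alone (median 942 bases), and these had a median of 0.672 TPM and 20.5 reads. The 201 genes with longer models (median 2951 bases) had a median of 1.48 TPM and 144 reads. Of the first kind 11 genes reached a mean TPM of 1 (32.4%), of the second 133 (66.2%). Olfr1281, on which a genotype result below turns, is of the first kind, with a model of 918 bases.

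The 239 genes together took a similar share of receptor TPM in all libraries. It was 15.4% to 16.2% over the 4 WT libraries and 14.7% to 14.9% over the 4 cKO libraries. All 4 cKO libraries thus lay below all 4 WT libraries, by a margin of under 1 percentage point between the nearest ones. Of receptor reads, which are not divided by length, the share was 15.1% to 16.8% in WT and 14.5% to 15% in cKO libraries. Summed TPM of the 239 genes was 413.6 to 470 in WT and 328 to 422.6 in cKO libraries, and these ranges overlapped. The share was not tested.

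Receptor mRNAs were on balance lower in late than in early polysomes. Across the mean of both genotypes, 36 of the 146 tested chromosome 2 receptors fell and 2 rose (limma on log2(scaled TPM + 1), adjusted p under 0.05 over 16097 genes). Of all genes tested, 34.6% fell and 34.3% rose. The share of the receptors called in either direction (26%) was thus below the share of all genes, and falls outnumbered rises. The median late minus early difference was -0.19 for these receptors, -0.22 for the other 678 tested receptors (162 fell, 34 rose) and -0.01 for all genes. Of the receptors numbered next below, Olfr829 to Olfr986, 18 of 76 fell and 2 rose, with a median of -0.21.

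**Figure D2:**
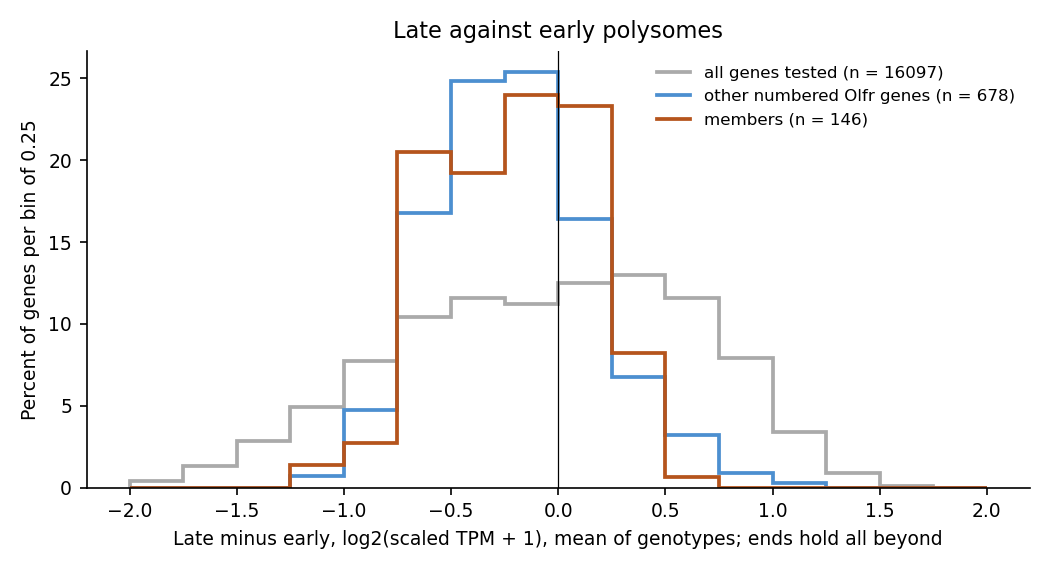
Share of genes in bins of 0.25 of the late minus early difference in log2(scaled TPM + 1), averaged over genotypes, for the 146 tested chromosome 2 receptors (members, brown), the other 678 tested receptors (blue) and all 16097 genes (grey). Both receptor curves are narrower than that of all genes, and 67.8% of the chromosome 2 receptors lie below 0.

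Counted by lysate, 50 of the 146 were lower in late polysomes in 4 of 4 lysates and 7 were higher in 4 of 4 (37.8% and 38.2% of all genes tested). After scaling, 20 genes had every late library below every early one, and 1 had every late library above (30.9% and 31.5% of all genes). By lysate the median of the tested receptors was -0.06 and -0.22 (WT) and -0.19 and -0.27 (cKO). Genes of like coding length were set beside them. Of 721 genes outside the numbered receptors with a coding sequence of 900 to 1000 bases, 313 fell (43.4%) and 170 rose (median -0.20). Of the 198 of these with a mean TPM of 1 to 9, 52 fell (26.3%) and 24 rose (median -0.12). Of the 142 chromosome 2 receptors in that length range, 36 fell (25.4%) and 2 rose (median -0.19). The share that fell was thus similar, and fewer of the receptors rose. Gene-model length moved with the difference: the 11 tested receptors with models about as long as the coding sequence had a median of 0.17, and the 133 with longer models one of -0.20. The part of model length in the result was not tested. Scaling affected the split: with quantile normalization 20 receptors fell and 4 rose (median -0.04). Without WT early replicate 2, 22 fell and 4 rose, and the count called fell from 38 to 24 without WT late replicate 2 or without cKO early replicate 2. Sustentacular cell markers (9 of 9 detected, none at 0), whose cells do not express receptors, summed to 6752 to 8232 TPM in early and 11463 to 13276 TPM in late libraries. Of these 9 markers 8 rose and 1 fell, and of the 10 mature neuron markers 8 rose and 2 fell. The part of either cell type in the fraction result was not tested.

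Olfr1258 (MOR232-3, 89921944 to 89930746, plus strand) fell in both genotypes. It was at 5.05 and 5.57 TPM (WT early), 2.14 and 2.54 (WT late), 5.77 and 7.13 (cKO early) and 3.47 and 3.03 TPM (cKO late). Every early library lay above every late one, and the log2 change was -0.95 (SE 0.14, limma adjusted p = 0.000341) on average, -0.996 among WT and -0.91 among cKO libraries. Olfr1104 (MOR207-1, 87021610 to 87022542, minus strand) had 5.74 and 5.12 TPM (WT early), 2.60 and 2.74 (WT late), 3.95 and 5.90 (cKO early) and 2.30 and 1.44 TPM (cKO late). Its early libraries, too, all lay above its late ones (log2 change -1.01, SE 0.17, limma adjusted p = 0.000918). On average over libraries the early TPM of Olfr1104 was 2.28 times and that of Olfr1258 2.10 times the late TPM.

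The largest fall was that of Olfr1140 (MOR177-6, 87746161 to 87747180, plus strand), at 3.86 and 5.63 TPM (WT early), 2.62 and 3.02 (WT late), 7.58 and 9.32 (cKO early) and 3.79 and 1.03 TPM (cKO late). Its early and late libraries did not overlap, although WT early replicate 1 and cKO late replicate 1 came close. The log2 change was -1.17 (SE 0.27, limma adjusted p = 0.00423) on average and -1.69 (SE 0.38, adjusted p = 0.00519) in cKO, where 4 reads lay behind the lowest library. Olfr1196, whose values stand above, fell by 0.90 (SE 0.11, limma adjusted p = 0.000168), in all 4 lysates. Its 97% identical neighbour Olfr1197 had 3.98 and 4.12 TPM (WT early), 3.70 and 4.26 (WT late), 5.04 and 5.96 (cKO early) and 4.01 and 3.17 TPM (cKO late). The change of Olfr1197 was -0.36 (SE 0.14, limma adjusted p = 0.0434), and the difference between the pair was not tested. Olfr1262 fell by 0.64 (SE 0.17, limma adjusted p = 0.0105) and Olfr1217 by 0.63 (SE 0.18, adjusted p = 0.0115).

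**Figure D3:**
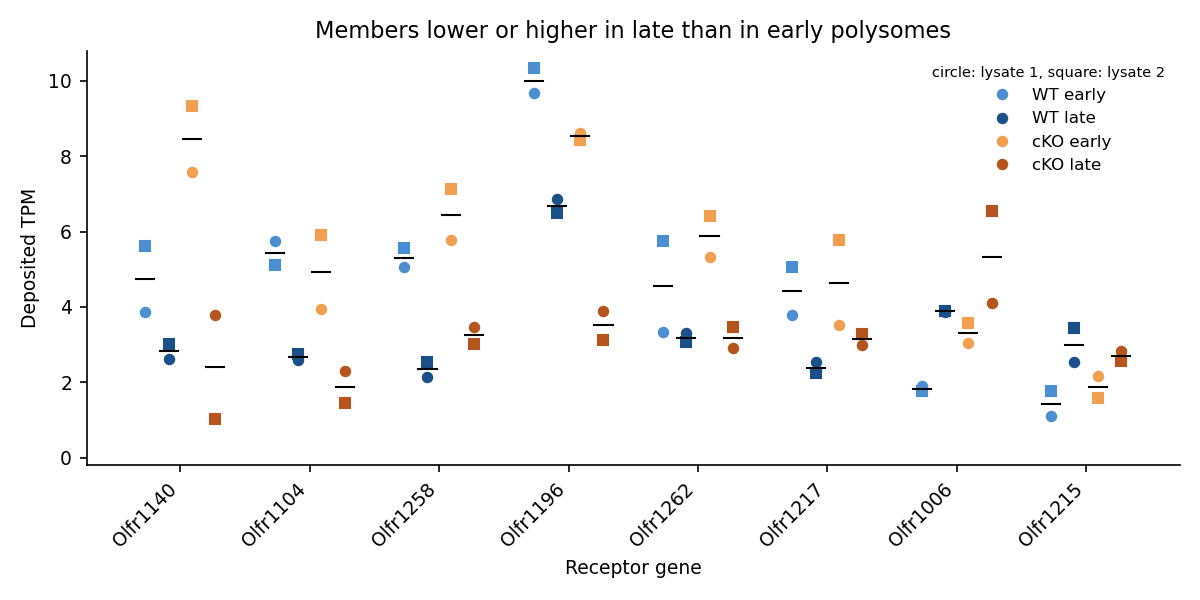
Deposited TPM of 8 chromosome 2 receptors by library (circles lysate 1, squares lysate 2, black bars the mean of 2 libraries) in WT early, WT late, cKO early and cKO late polysomes. Olfr1140, Olfr1104, Olfr1258, Olfr1196, Olfr1262 and Olfr1217 are lower in late libraries, and Olfr1006 and Olfr1215 are the 2 genes that rose.

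The genes that rose belong to MOR213 and MOR233. Olfr1006 (MOR213-4) was at 1.89 and 1.77 TPM (WT early), 3.87 and 3.90 (WT late), 3.03 and 3.58 (cKO early) and 4.11 and 6.56 TPM (cKO late). Every late library exceeded every early one on the deposited scale but not after scaling, and the log2 change was 0.57 (SE 0.16, limma adjusted p = 0.0116). Olfr1215 (MOR233-13) was at 1.11 and 1.76 TPM (WT early), 2.54 and 3.43 (WT late), 2.18 and 1.57 (cKO early) and 2.83 and 2.56 TPM (cKO late) (log2 change 0.46, SE 0.18, limma adjusted p = 0.0452). Its early libraries all lay below its late ones on either scale. Olfr1215 lies near Olfr1217 among the MOR233 genes, of which 7 of 15 tested ones fell.

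Some families are given here with their counts, beside the 36 of 146 receptors that fell and the 67.8% with a negative difference. All 3 MOR234 genes fell: Olfr1261 by 0.59, Olfr1262 by 0.64 and Olfr1263 by 0.55 (limma adjusted p = 0.00704, 0.0105 and 0.00562). Since the 3 coding sequences are at least 90.4% identical, their reads are not fully separable. In MOR203, at the start of the first array, 3 of 4 tested genes fell, Olfr987 by 0.67, Olfr988 by 0.74 and Olfr992 by 0.65. Of the 13 tested MOR231 genes 13 had a negative difference and 3 fell. MOR213 differed: 5 of its 6 tested genes had a positive difference, of which that of Olfr1006 passed the test. By position, 22 of the 60 tested genes in the last 4 windows of 0.5 Mb of the first group (Olfr1176 to Olfr1272) fell, 12 of 76 in its first 6 windows, and 2 of 10 in the second group. These families and windows were picked out after their values were seen.

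In WT mice alone, 9 of the 146 tested receptors fell and 2 rose late against early (27.7% and 27.1% of all genes tested). Without WT early replicate 2 this was 1 and 0, and with quantile normalization 5 and 5. Leaving out another WT library gave 5 to 7 calls in all. The falls were led by Olfr1258, Olfr1104, Olfr1228 (log2 change -0.83), Olfr1217 (-0.75), Olfr1109 (-0.66) and Olfr1263 (-0.62), and among rises Olfr1006 was at 0.71 (SE 0.22, limma adjusted p = 0.027). Leaving out WT early replicate 2 kept the call of Olfr1258 (-0.93, limma adjusted p = 0.0279) and ended those of the 6 others named here, with changes of -0.95 for Olfr1104, -0.75 for Olfr1228 and 0.68 for Olfr1006. Olfr1104 and Olfr1006 lost their call in WT without any 1 of the 4 WT libraries. With lysate as a replicate block, the call of Olfr1228 was also lost (limma adjusted p = 0.0501).

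In cKO mice alone, 18 of the 146 fell and 1 rose (29.2% and 28.9% of all genes tested), and with quantile normalization 11 and 2. Without cKO early replicate 2, 8 fell and 0 rose. The largest falls were those of Olfr1140, Olfr987, Olfr1196, Olfr1104, Olfr1208 and Olfr1258. Olfr987 (MOR203-7P) was at 2.14 and 4.40 TPM (cKO early) and 0.44 and 0.995 TPM (cKO late), on 3 and 5 reads in the latter (log2 change -1.37, SE 0.36, limma adjusted p = 0.012). Olfr1208 (MOR225-4) was at 4.18 and 5.56 TPM (cKO early) and 2.00 and 2.20 TPM (cKO late) (-1.01, SE 0.22, limma adjusted p = 0.00417). In both genes the cKO fractions did not overlap. The call of Olfr987 was lost without cKO early replicate 2 (limma adjusted p = 0.0957) or cKO late replicate 1 (0.0621). The gene that rose, Olfr1031 (MOR200-1), went from 1.40 and 1.51 TPM to 3.21 and 3.41 (0.73, SE 0.26, limma adjusted p = 0.0421). It lost its call in 10 of 16 alternatives, among them lysate as a replicate block (limma adjusted p = 0.0586) and leaving out any 1 cKO library (up to 0.129). Olfr1104, Olfr1196, Olfr1229 and Olfr1258 were the 4 genes called in both genotypes.

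Whether the fraction difference depended on genotype was tested directly, as an interaction. None of the 146 receptors passed limma or voom (0.00621% of all genes tested, 1 gene, passed limma), and 6 had an unadjusted p under 0.05 (4.11%, against 2.85% of all genes tested). The smallest p-values belonged to Olfr1151, Olfr1154, Olfr1208 and Olfr987, all with more negative late minus early values in cKO. Without WT early replicate 2 the number passing was also 0.

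The comparison of cKO with WT asked which transcripts on polysomes change when Mex3a is lost. No chromosome 2 receptor passed limma's test in early polysomes, in late polysomes or on lysate means, where 0.0435%, 0.0124% and 0.00621% of all genes tested passed. At an unadjusted p under 0.05, 19 were lower and 5 higher in early polysomes (16.4% in all), where 3.44% and 3.2% of all genes tested (6.64% in all) were so. In late polysomes 21 were lower and 3 higher (16.4%), against 4.36% and 4.99% (9.36%). On lysate means 22 were lower and 5 higher (18.5%), against 5.24% and 6.09% (11.3%), and of the other receptors 18% had such a p. The median difference of the 146 receptors was 0.03 in early polysomes, -0.13 in late polysomes and -0.05 on lysate means. Leaving out WT early replicate 2 gave a median of 0.08 in early polysomes. The counts at an unadjusted p are given only with that library kept as WT, and depend on it. Without WT early replicate 2, none passed in either fraction, and voom called 0 receptors in either fraction.

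On scaled values, 14 of the 146 receptors had all 4 cKO libraries below all 4 WT libraries, and 2 had all 4 above (1.28% and 1% of all genes tested). Of the other tested receptors 47 of 678 were lower in this way and 20 higher. The 4 libraries of a genotype come from 2 lysates and so are not 4 replicates. On lysate means alone, 47 receptors had both cKO lysates below both WT lysates and 37 had both above (20.8% and 22.7% of all genes tested). Without WT early replicate 2, the first counts were 14 lower and 7 higher, of 146, and 2.13% and 1.99% of all genes tested. Sums of cell type markers also differed between genotypes. Mature neuron markers were lower in both cKO late than in both WT late libraries (above), immature neuron markers (10 of 10 detected, none at 0) summed to 4530 to 5037 TPM in WT and 4065 to 4311 TPM in cKO libraries, and ensheathing glia markers (5 of 5) to 655 to 835 and 580 to 643 TPM. Immune markers (6 of 6) summed to 305 to 351 TPM (WT early) against 377 to 425 (cKO early), and to 237 to 264 (WT late) against 278 to 282 TPM (cKO late). Single markers did not all follow these sums. Lyz2 was at 63.31 to 85.66 TPM in WT and 92.97 to 127.4 TPM in cKO libraries. S100a9 was lower in both cKO late (32.83 and 23.35 TPM) than in both WT late libraries (37.01 and 42.42 TPM). On lysate means Fabp7, the highest glia marker, differed by -0.34 and Sox10 by 0.21. Sustentacular cell markers (9 of 9) summed to 11463 to 11914 TPM in WT late and 12734 to 13276 TPM in cKO late libraries. No gene of these lists was called between genotypes, and their part in the receptor counts was not tested.

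Olfr1281 (MOR248-14P or MOR248-18, 111328421 to 111329338, plus strand) had the smallest p on lysate means. It was at 3.15 and 2.95 TPM (WT early), 3.86 and 3.74 (WT late), 0 and 0.496 (cKO early) and 0.595 and 0 TPM (cKO late). All WT libraries thus lay far above all cKO libraries, on 57 inferred reads in WT and 4 in cKO. The log2 difference was -1.80 (SE 0.19, limma adjusted p = 0.126). Its neighbour Olfr1280 (MOR248-1) was at 2.88 and 2.70 TPM (WT early), 2.59 and 1.60 (WT late), 0 and 0 (cKO early) and 0.272 and 1.85 TPM (cKO late). Here cKO late replicate 2 lay within the WT range (early difference -1.94, SE 0.39, limma adjusted p = 0.324).

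Olfr1206 (MOR230-3, 88864607 to 88865530, plus strand) had 2.50 and 2.21 TPM (WT early), 1.65 and 2.08 (WT late), 0.318 and 0.345 (cKO early) and 0.248 and 0.337 TPM (cKO late). The genotypes did not overlap, and mean TPM was 6.76 times higher in WT (128 against 16 reads). On the log2 scale, which understates the change of so low a gene, the difference was -1.22 (SE 0.20, limma adjusted p = 0.239). Olfr1228 (MOR233-1, 89248721 to 89249692, minus strand) had 7.40 and 8.24 TPM (WT early), 5.44 and 3.30 (WT late), 2.52 and 1.89 (cKO early) and 1.17 and 2.16 TPM (cKO late). All of its cKO libraries lay below its lowest WT library, WT late replicate 2 (difference -1.20, SE 0.16, limma adjusted p = 0.189).

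Olfr1301, the highest gene of the second group, had 7.18 and 6.55 TPM (WT early), 7.84 and 10.2 (WT late), 3.66 and 4.15 (cKO early) and 4.98 and 3.99 TPM (cKO late). Its cKO libraries reached 4.98 TPM at most and its WT libraries 6.55 TPM at least (difference -0.73, SE 0.13, limma adjusted p = 0.262). Olfr1195 (MOR230-4) had 2.49 to 4.38 TPM in the WT and 1.098 to 1.37 TPM in the cKO libraries (late difference -1.09, SE 0.23, limma adjusted p = 0.311). When the inferred reads were tested with voom for the lysate comparison, Olfr1206 (limma adjusted p = 0.0391), Olfr1228 (adjusted p = 0.0266) and Olfr1211 passed as lower in cKO, where 0.236% of all genes tested were lower. Olfr1281 passed (adjusted p = 0.0379) with the replicate number as a block.

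**Figure D4:**
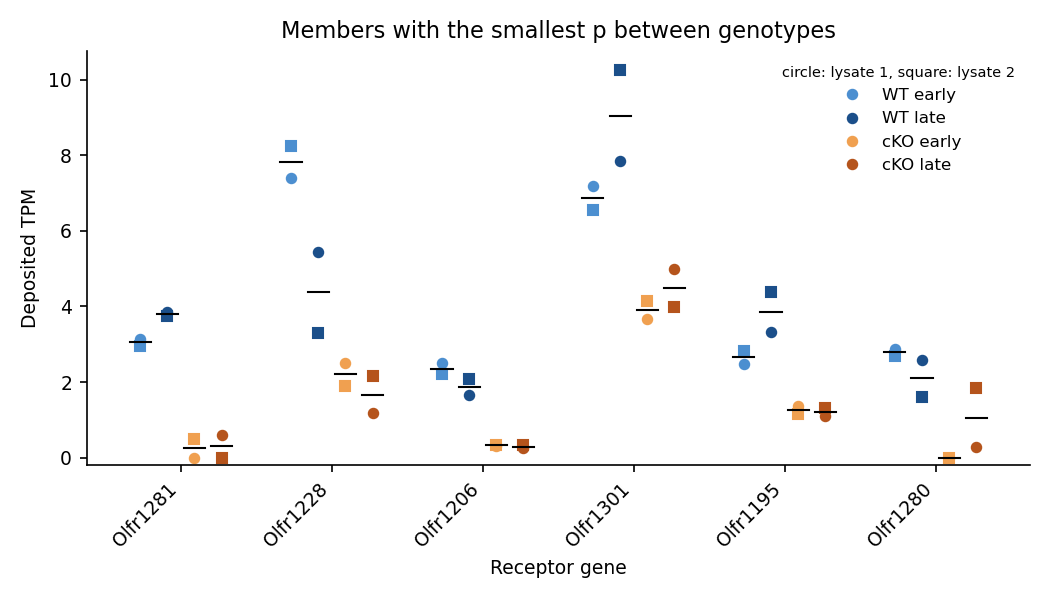
Deposited TPM by library (circles lysate 1, squares lysate 2, black bars the mean of 2 libraries) of 6 chromosome 2 receptors named for a small unadjusted p between genotypes. In Olfr1281, Olfr1228, Olfr1206, Olfr1301 and Olfr1195 all 4 cKO libraries lie below all 4 WT libraries, and in Olfr1280 they overlap.

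The 14 genes with all cKO libraries lower included both groups of neighbours. Olfr1182, Olfr1183, Olfr1195, Olfr1206, Olfr1211, Olfr1212, Olfr1228, Olfr1260 and Olfr1264, 9 genes in all, lay among the 60 tested ones of the last 4 windows of the first group. Its first 6 windows held 2 of 76 (Olfr1009 and Olfr1087), and the second group 3 of 10 (Olfr1281, Olfr1297 and Olfr1301). The 2 genes with all cKO libraries higher were Olfr1122 and Olfr1253. Genes between the lower ones went either way: in the window from Olfr1204 to Olfr1232, 11 of 19 tested genes had both cKO lysates lower and 4 had both higher. The position of these genes was looked at after their values were seen, and it was not tested.

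**Figure D5:**
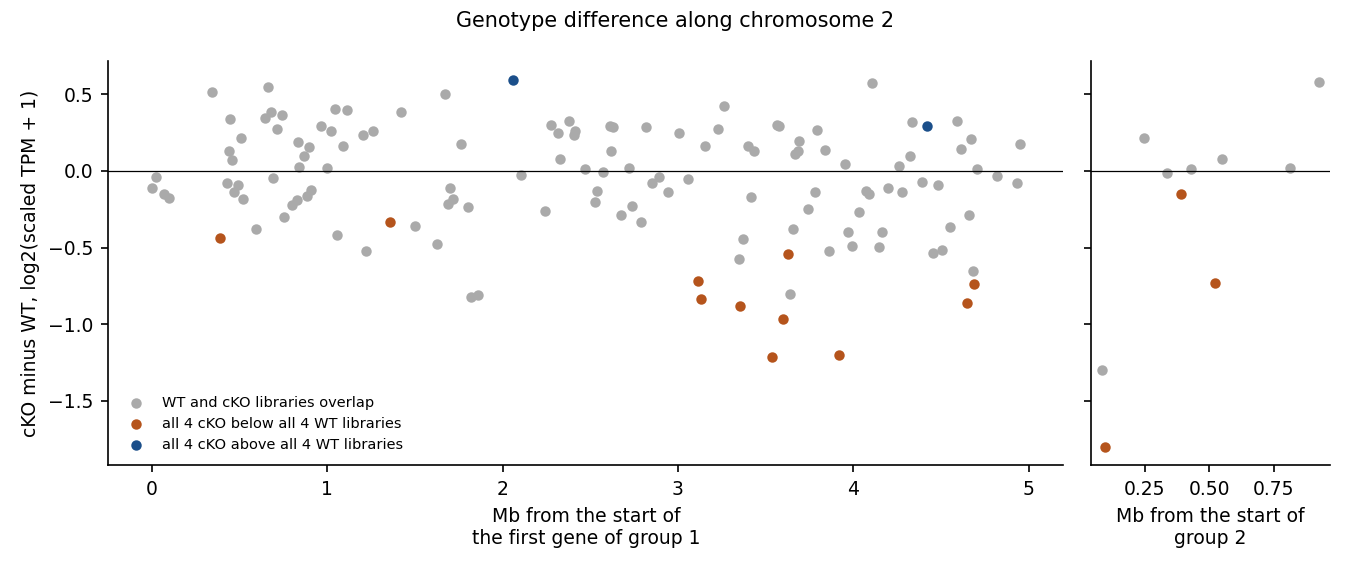
Difference of cKO from WT on lysate means (log2(scaled TPM + 1)) of the 146 tested chromosome 2 receptors against distance in Mb from the start of the first gene of each group of neighbours. Brown points are the 14 genes with all 4 cKO libraries below all 4 WT libraries, 9 of them in the last part of the first group, and blue points the 2 genes with all 4 above.

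The MOR230 family, in that stretch, shows how neighbours differed. Of its 8 genes 4 were tested, and of these Olfr1183, Olfr1195 and Olfr1206 had all cKO libraries lower. Olfr1183 was at 1.39 to 2.60 TPM in WT and 0.316 to 0.714 TPM in cKO libraries. Olfr1205, too low to be tested, was at 0.559 to 0.738 TPM in WT, and in cKO at 0.0684 and 0.0741 TPM in early libraries and at 0 in both late ones. Olfr1209, at the end of the family, had the opposite order, with 0.993 and 1.56 TPM in WT early and 2.17 and 2.19 TPM in cKO early libraries. In late libraries its genotypes overlapped (1.60 and 1.55 TPM in WT, 1.26 and 2.05 in cKO).

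Genes of receptor choice, receptor export and odorant signalling were examined from 3 lists. Of 15 regulators of receptor choice and its feedback, such as Lhx2, the Ebf factors and Atf5, 8 rose and 6 fell late against early (median 0.31), where 34.3% of all genes tested rose and 34.6% fell. Of 10 genes of receptor folding and export, such as Rtp1, Calr and Canx, 6 rose and 3 fell (median 0.48). Of 16 listed genes of odorant signalling 14 had values, and of these 10 rose and 4 fell (median 0.56). None of the 3 lists had a gene called between genotypes in either fraction or on lysate means. Their medians on lysate means were -0.04, -0.07 and -0.06.

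Among the highest 4 genes of each list, those of receptor choice went both ways between fractions, those of export rose and those of signalling fell. Atf5, a factor of the feedback that follows receptor expression, fell by 0.93 on the log2 scale (SE 0.12, limma adjusted p = 0.000211), and Lhx2, a transcription factor that receptor enhancers need, fell by 0.80. Ebf2 and Ebf3, which bind receptor promoters, rose by 0.76 and 0.35. Among export genes Calr, an endoplasmic reticulum chaperone, rose by 1.14 (SE 0.11), Hspa5 by 0.85, Canx by 0.59 and Rtp1, which brings receptors to the cell surface, by 0.48 (SE 0.08, limma adjusted p = 0.000842). Among signalling genes Gng13, a G protein gamma subunit, fell by 1.73 (SE 0.14), Omp, the marker of mature olfactory neurons, by 0.83, Stoml3 by 0.76 and Gnb1 by 0.61.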

How the data were processed

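The authors deposited 1 table of TPM values (read shares scaled by gene-model length), with 1 column per library summing to 1000000. The submitters' processing notes name FastQC, cutadapt, STAR, DESeq2 and mm10. The counting method, annotation and strand setting are not given in the sources used here. Libraries came from a stranded low-input kit, per the labels' protocols, from 50 µL of each of the pooled fractions of 350 µL. The Cre line is not reported here. Groups and replicate numbers were read from the sample titles.

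Libraries were brought to a common scale with median ratios of TPM, and log2(scaled TPM + 1) of the 16097 genes with a mean TPM of at least 1 went into limma 3.58.1 (R 4.3.3). The 4 groups were fitted together with a mean-variance trend, and two-sided p-values were adjusted by the Benjamini-Hochberg method at 0.05. A separate genotype test used 1 value per lysate, averaged over its fractions. Fold changes are on the log2(TPM + 1) scale and understate those of low genes. Beside the first count of receptors called in a comparison, the share of all genes tested that met the same rule is given.

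TPM values of a gene are whole multiples of a step, from which whole reads were inferred for all 19783 genes above 0 in at least 2 libraries (tolerance 0.001 reads). On simulated libraries 98.9% of 19366 genes came back exactly. Gene-model lengths follow from the same steps, with the scale fixed on RefSeq lengths of 33 of the receptors. Reads served voom as an alternative. On simulated libraries with 200 genes changed 3-fold, limma recovered 200 of 200 in each of the genotype and fraction comparisons, with 13 to 27 false calls. The changed genes were drawn only from genes with more reads than most of the receptors, and the spread between simulated libraries was set low. This recovery therefore does not show what can be detected at the depth of the receptors.

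Library names tie each early library to a late one of its lysate, which pairs the fractions. Correlations of paired deviations from group means were 0.0862 (WT) and 0.0502 (cKO). The block is an alternative fit.

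Positions and MOR names came from RefSeq and coding sequences and transcripts from GENCODE M21, both on GRCm38. Sequence identity was aligned with Biopython 1.88. Gene groups were split at gaps of over 1 Mb. Genes named in the text were Mex3a, the 12 receptors with the highest mean TPM, the highest of each group of neighbours, those most alike in coding sequence among the 30 highest, up to 6 falling and 6 rising genes with the largest change past the threshold per fraction comparison (no overlap, and 3 or more scaled TPM on either side), the 4 smallest p-values where no receptor passed, and the highest genes of the 3 lists. The rule asked for proteins, for which coding sequences were used. Others were named after their values were seen. The genes described, the lists and the tests were chosen with earlier results of these data known. Alternatives were pseudocounts of 0.1 and 0.5, no filter or a mean TPM of at least 5, deposited TPM, quantile normalization, no trend, replicate blocks, voom and leaving out each library. Figures were drawn with matplotlib 3.10.9.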

Additional observations from a re-analysis of the deposited data

Results flagged for a closer look

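Olfr1151 and Olfr1154 went opposite ways between fractions in the 2 genotypes, in every lysate. Olfr1151 (MOR177-9) rose from 1.16 and 0.50 TPM in WT early to 2.65 and 2.20 TPM in WT late libraries, and in cKO the values were 1.85 and 1.28 TPM early and 0.875 and 0.594 TPM late. The late minus early difference of cKO less that of WT was -1.49 (SE 0.41, limma adjusted p = 1.00 after rounding), on 60 inferred reads in all. Olfr1154 (MOR173-2) was at 1.65 and 1.52 TPM (WT early), 3.70 and 2.34 (WT late), 3.29 and 2.41 (cKO early) and 1.39 and 1.62 TPM (cKO late) (-1.24, SE 0.36, the same adjusted p). Neither interaction passed the test, and 13 of 146 receptors (8.9%), against 2.7% of all genes tested, had opposite directions in this way. The 2 shares are not on an equal footing, since 68.9% of all genes but 26% of the receptors were called late against early. The part of this in the counts was not tested.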

How the results depend on the processing

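No single-receptor result that was recomputed changed sign under the alternatives run. Late against early on the mean of genotypes, 38 receptors were called, 3 of 7 left at a mean TPM of at least 5, 24 with quantile normalization, and 24 to 38 when 1 library was left out, the fewest without WT late replicate 2 or cKO early replicate 2. In WT, 11 were called, and 24 with no filter, 2 at a mean TPM of at least 5, 29 with no mean-variance trend, 22 with voom, and 1 to 14 when 1 library was left out (1 without WT early replicate 2, 5 without WT late replicate 2, 7 without either replicate 1). In cKO, 19 were called, and 1 at a mean TPM of at least 5, 30 with no mean-variance trend, and 8 to 23 when 1 library was left out (8 without cKO early replicate 2). Between genotypes 0 receptors were called in the early, late and lysate comparisons, and 0 in all fits that left out a library. The exceptions were 1 in early polysomes with no mean-variance trend (Olfr1206) and 3 on lysate means with voom. The cause of these differences was not tested. Receptors with all cKO libraries above all WT libraries numbered 2, and 7 without WT early replicate 2, a check added after the data were seen, where fewer WT libraries are compared.

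With lysate as a replicate block, 36 receptors were called on average (34 lower), 10 in WT and 16 in cKO, and calls of genes named above were lost for Olfr1228 in WT and Olfr1031 in cKO. WT and cKO lysates share only a number, and the correlation of their deviations was 0.331 (early) and 0.142 (late). With that number as a block 1 receptor (Olfr1281) was called on lysate means. Each tested receptor rested on 30 reads or more over 8 libraries, and what genotype difference this depth can detect was not tested.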
